A study of Mus musculus with 10 samples.

Results

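The 31 genes described here sense, mark and repair broken DNA. They were taken by symbol from a list of damage kinases, chromatin marks, end joining, homologous recombination and single-strand break repair genes. The list was chosen with earlier results of these data known. All 31 were found among the 24421 genes counted. Their RNA was measured by total RNA sequencing of inguinal subcutaneous white fat from wild-type C57BL/6J mice. The left hindlimb had received 33.3 Gy of electrons as FLASH (ultra-high dose rate, 4 libraries) or as CONV (conventional dose rate, 3 libraries), and 3 libraries came from sham mice that were not irradiated. All libraries were from day 70 and carry the same batch label. The labels used here give neither sex nor age and do not say that libraries are separate animals, so p-values measure the spread between these samples.

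A double-strand break is bound by the MRE11-RAD50-NBN complex, which activates the kinase ATM, while ATR responds to single-stranded DNA and stalled replication. ATM phosphorylates the histone variant H2AX around the break, MDC1 binds that mark, and the ubiquitin ligases RNF8 and RNF168 prepare the chromatin for 53BP1. The ends are then joined directly, by Ku, DNA-PKcs, Artemis and the XRCC4-LIG4 ligase, or copied from the sister chromatid by BRCA1, BRCA2, PALB2 and their partners in homologous recombination, which works mainly in S and G2 phase. Most adipocytes do not divide. Much of this response works through protein phosphorylation and recruitment, which RNA levels do not measure.

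No break repair gene passed an adjusted p of 0.05 (edgeR's quasi-likelihood test, Benjamini-Hochberg over all genes tested) between FLASH and sham, CONV and sham, or FLASH and CONV. The background share of all genes passing with all 10 libraries was 0% in each of the 3 comparisons. A pair of libraries, FLASH replicate 3 and CONV replicate 2, stood apart from the rest. In both of them 22 of the 31 genes lay above every one of the other 8 libraries, as 32.4% of all genes tested did, by up to 13.6 times the median of those 8 for Brca1 in CONV replicate 2. Without that pair, 29 of 31 genes had a 95% interval of the FLASH to sham fold within 2-fold in either direction, and 25 of 31 for CONV to sham.

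The pair was defined by Cr2, a complement receptor of mature B cells and follicular dendritic cells. Cr2 stood at 482 CPM (gene counts scaled to 1e6 per library) in FLASH replicate 3 and 447 CPM in CONV replicate 2, and at no more than 0.54 CPM in the other libraries. Libraries held 22.4 M to 36.0 M gene counts (M, 1e6 counts), so that a count of 3 equalled 0.0833 to 0.134 CPM (counting error only), and no break repair gene was at 0 in any library. Entries given to no gene were 69.6% and 66.7% of all entries in the pair and 52.0% to 62.0% in the rest. All values below are CPM after TMM scaling. The 8 B cell genes summed to 2231 to 2700 CPM in the pair and to 1.59 to 9.76 CPM in the rest, with none of the 8 at 0 in any library. The 8 T cell genes summed to 491 to 776 CPM against 5.18 to 10.8 CPM, the 5 lymph node stroma genes in the files to 119 to 280 CPM against 0.666 to 10.9 CPM, and the 8 adipocyte genes to 1865 to 2215 CPM against 8998 to 15746 CPM. The adipocyte genes, Adipoq and Plin1 among them, were thus detected in every library, as the tissue label has it. Of the stroma genes, Ccl21a was at 0 in all 10 libraries and adds nothing to these sums, Glycam1 and Chst4 were each at 0 in 7 of the 8 other libraries, and Madcam1 in 3. In bulk tissue, fewer cells of a type and less RNA per cell cannot be told apart.

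Per kilobase of annotated exon (RPKM, from CPM and GENCODE M21 exon lengths), levels in sham fat spanned from 13.4 ± 0.983 (SD, n = 3) for Rad50 to 0.153 ± 0.0634 for Rad51c. Rad50, Nbn (12.0 ± 0.542), Parp1 (11.6 ± 1.67), Atm (9.19 ± 0.826), Rnf168 (7.603 ± 0.190) and Prkdc (7.497 ± 0.294) were the 6 highest. In that order Nbn and Parp1, and Rnf168 and Prkdc, differed by less than the SD of either gene, while Rad50 and Nbn, Parp1 and Atm, and Atm and Rnf168 differed by more. The 8 lowest were Palb2, Fancd2, Bard1, Rad54l, Brca1, Chek1, Rnf8 and Rad51c, all under 0.77 RPKM in the sham mean, and 7 of these, all but Rnf8, act in recombination, crosslink repair or the replication checkpoint.

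**Figure D1:**
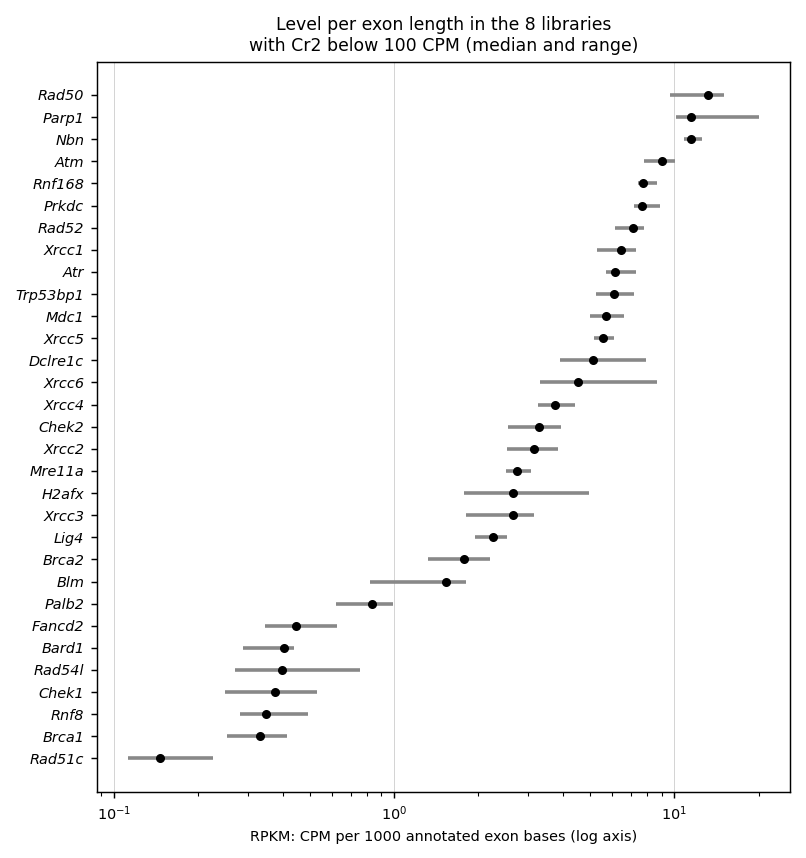
RPKM of each break repair gene (log axis) in the 8 libraries with Cr2 below 100 CPM, with the median as a point and the range as a bar. Rad50, Nbn and Parp1 sit at the top and Rad51c at the bottom, and the ranges of neighbours overlap through most of the order.

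Among the kinases, Atm, the apical kinase of the double-strand break response, read 84.0, 91.3 and 101 CPM in sham, 83.1, 90.0, 206 and 97.9 CPM in FLASH replicates 1 to 4, and 90.2, 191 and 78.03 CPM in CONV replicates 1 to 3. The 206 and 191 CPM belonged to the Cr2-rich pair, and the other 8 values overlapped across groups. The log2 fold change of Atm was 0.38 ± 0.41 (SE) for FLASH and 0.38 ± 0.43 for CONV with all libraries, and −0.03 ± 0.12 and −0.15 ± 0.13 without the pair. Atr, the replication stress kinase, read 46.8, 50.0 and 56.9 CPM in sham, 47.4, 53.6, 92.5 and 59.8 CPM in FLASH, and 51.1, 79.5 and 49.2 CPM in CONV. Its 8 remaining values likewise overlapped, with log2 fold changes of 0.06 ± 0.13 for FLASH and −0.05 ± 0.14 for CONV without the pair.

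Chek1 encodes the effector kinase downstream of ATR. It was at 1.64, 1.497 and 0.975 CPM in sham, 1.54, 1.43, 4.62 and 1.36 CPM in FLASH, and 1.31, 11.2 and 2.06 CPM in CONV. Outside the pair its groups overlapped, and the CONV to sham log2 fold change went from 1.82 ± 0.85 with all libraries to 0.28 ± 0.34. Chek2, the effector kinase downstream of ATM, was at 7.14, 7.29 and 8.47 CPM in sham, 8.96, 8.09, 11.1 and 7.72 CPM in FLASH, and 6.11, 13.6 and 5.81 CPM in CONV. Without the pair both CONV values lay below all sham and all FLASH values. The log2 difference of FLASH from CONV was then 0.48 ± 0.17 (a fold of 1.39, 95% interval 1.07 to 1.82), with an unadjusted p of 0.0204 and an adjusted p of 0.262 by edgeR, which did not pass.

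For the break mark and its readers, H2afx, the gene of H2AX, read 6.04, 3.35 and 2.45 CPM in sham, 6.87, 4.02, 18.1 and 2.62 CPM in FLASH, and 2.69, 49.4 and 6.18 CPM in CONV. The 18.1 and 49.4 CPM were in the Cr2-rich pair. H2afx also varied most among the other 8 libraries, with a coefficient of variation of 42.3%, and its interval without the pair was wide, a fold of 0.52 to 2.46 for FLASH and 0.463 to 2.63 for CONV. Trp53bp1, the gene of 53BP1, which shields ends from resection, read 59.3, 53.4 and 68.8 CPM in sham, 50.5, 57.6, 90.0 and 63.8 CPM in FLASH, and 61.01, 75.3 and 52.4 CPM in CONV. These groups overlapped without the pair, with log2 fold changes of −0.08 ± 0.14 and −0.11 ± 0.16. The exons of Trp53bp1 share 22.1% of their bases with Tubgcp4 on the opposite strand, and the strand setting of the counting is not given, so its level is uncertain. Rnf168 had the lowest coefficient of variation of the list over the 8 libraries, 4.84%, and stayed at 32.9 to 38.7 CPM over all 10. Mdc1 spanned 36.8 to 48.6 CPM outside the pair and stood at 99.0 and 99.3 CPM inside it. Rnf8 stayed at 1.66 to 2.90 CPM throughout, and 26.3% of its exon bases are shared with Gm28043 on the same strand, so its counts are uncertain too.

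The MRN complex was the group that least followed the pair. Rad50, its ATPase, read 63.8, 73.9 and 68.9 CPM in sham, 66.6, 73.8, 60.8 and 64.0 CPM in FLASH, and 77.3, 58.2 and 49.6 CPM in CONV. The highest and the lowest value were both CONV libraries, and no group was separate. Nbn, the subunit that recruits ATM, read 29.2, 30.1 and 31.9 CPM in sham, 27.8, 29.7, 26.2 and 27.5 CPM in FLASH, and 28.8, 21.8 and 28.1 CPM in CONV. Every CONV value of Nbn lay below every sham value, with and without the pair, but by little: the log2 fold change was −0.21 ± 0.16 with all libraries (adjusted p = 0.614) and −0.11 ± 0.11 without the pair (adjusted p = 0.702, edgeR). Nbn was also the only gene of the 31 below all 8 others in both Cr2-rich libraries. Mre11a, the nuclease, was at 14.4 to 17.7 CPM in the 8 libraries and at 31.2 and 33.1 CPM in the pair.

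In end joining, Prkdc, the gene of the catalytic kinase DNA-PKcs, read 96.8, 90.5 and 97.1 CPM in sham, 98.4, 93.9, 155 and 101 CPM in FLASH, and 92.7, 149 and 112 CPM in CONV. Its log2 fold change without the pair was 0.04 ± 0.10 for FLASH and 0.09 ± 0.11 for CONV, with intervals of 0.871 to 1.21 and 0.889 to 1.28 in fold. Xrcc6, which encodes Ku70, read 17.8, 15.7 and 17.8 CPM in sham, 14.5, 10.98, 18.9 and 11.02 CPM in FLASH, and 13.2, 23.6 and 28.7 CPM in CONV. Without the pair all 3 FLASH values lay below sham, while the CONV values fell on either side of it. FLASH against CONV gave −0.77 ± 0.30 on the log2 scale (unadjusted p = 0.0318, adjusted p = 0.313, edgeR), a difference that CONV replicate 3 carried, since without that library it was −0.11. Without CONV replicate 1 instead, CONV replicate 3 was the lone CONV library and the difference passed, at −1.22 (adjusted p = 0.0180, edgeR), as did 6.52% of all genes in that fit. Its partner gene Xrcc5, for Ku80, showed no such spread outside the pair, at 13.1 to 15.5 CPM. Exons of Xrcc6 overlap Desi1 on the opposite strand over 8.5% of their bases.

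Dclre1c, which encodes the end-opening nuclease Artemis, read 33.5, 39.1 and 39.6 CPM in sham, 31.2, 51.7, 66.1 and 42.6 CPM in FLASH, and 63.3, 61.8 and 42.1 CPM in CONV. It was the only gene of the list whose CONV values all lay above sham with all 10 libraries, where 8.55% of all genes did, and also without the pair, where 12.9% did. The CONV to sham log2 fold change was 0.58 ± 0.28 and 0.48 ± 0.25 in these fits, with adjusted p = 0.607 and 0.450 (edgeR). CONV replicate 1 had the higher of the 2 remaining values, and without it the log2 fold change was 0.14. Lig4, the ligase that seals the joint, was at 11.8 to 12.9 CPM in sham and 9.44 to 11.7 CPM in FLASH. Lig4 was the only gene with all FLASH values below sham over 10 libraries, where 2.46% of all genes had none overlapping in that direction, and its log2 fold change there was −0.16 ± 0.19. Xrcc4, the ligase's scaffold, spanned 5.01 to 6.79 CPM outside the pair.

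**Figure D2:**
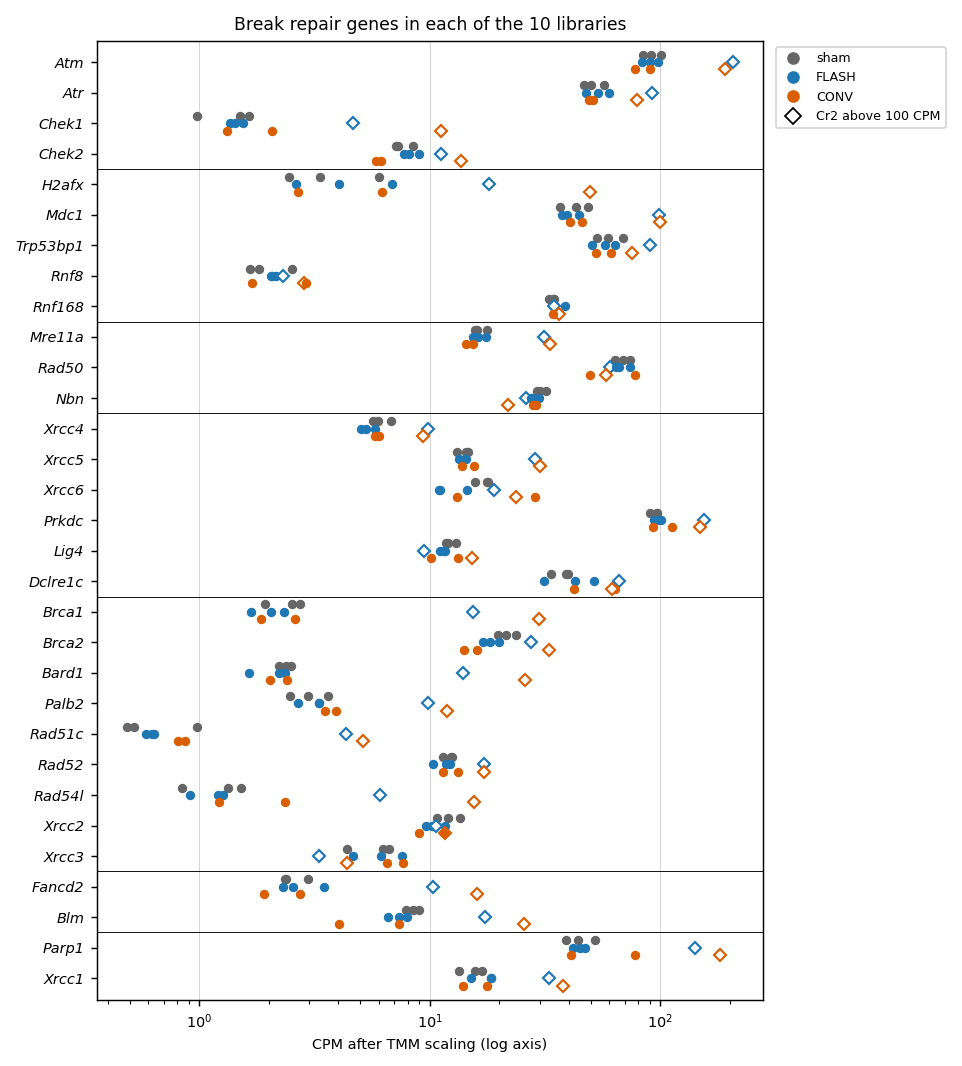
CPM after TMM scaling (log axis) of each break repair gene in every library, coloured by group and separated by role, from kinases at the top to single-strand break repair at the bottom. Open diamonds are the 2 libraries with Cr2 above 100 CPM, and they stand to the right for most genes, while filled points of the 3 groups overlap for most.

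Among recombination genes, Brca2, a tumour suppressor gene needed for this repair, had the smallest p of the list. It read 23.7, 21.5 and 19.8 CPM in sham, 17.05, 18.3, 27.5 and 20.01 CPM in FLASH, and 16.0, 32.9 and 14.1 CPM in CONV. Without the pair both CONV values were below all sham and all FLASH values, and the log2 fold change against sham was −0.54 ± 0.15, a fold of 0.686 with an interval of 0.541 to 0.870. The unadjusted p was 0.00644 and the adjusted p 0.184 (edgeR), so Brca2 did not pass. DESeq2 gave −0.53 with an adjusted p of 0.039, which did pass, as did 4.35% of all genes by DESeq2 in this comparison. With all libraries the value was −0.04 ± 0.33. The 2 CONV libraries behind the lower value also differed from sham in other markers: relative to the sham mean, skeletal muscle genes averaged 6.33 log2 units in replicate 1 and −3.68 in replicate 3 (sham libraries −2.38 to 4.62), macrophage genes 1.31 in replicate 1 (sham −0.12 to 0.15), and adipose progenitor genes −1.46 in replicate 3 (sham −0.28 to 0.35). Their part in the Brca2 difference was not tested.

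Rad54l, which encodes a DNA-dependent motor protein of recombination, read 1.52, 1.33 and 0.84 CPM in sham, 0.908, 1.21, 6.05 and 1.27 CPM in FLASH, and 1.22, 15.6 and 2.35 CPM in CONV. It had the highest CONV to sham log2 fold change with all libraries, 2.37 ± 1.07, with an adjusted p of 0.607 (edgeR) and an interval from 0.973 to 27.6 in fold. Without the pair that value was 0.51 ± 0.41. Rad51c, a recombination gene also tied to Fanconi anaemia, read 0.486, 0.521 and 0.975 CPM in sham, 0.636, 0.622, 4.31 and 0.587 CPM in FLASH, and 0.864, 5.11 and 0.809 CPM in CONV. Outside the pair its CONV values were both above FLASH, and sham replicate 3 exceeded them all. Xrcc2, another recombination gene, was at 13.6, 10.7 and 12.0 CPM in sham, 10.2, 9.66, 10.6 and 11.6 CPM in FLASH, and 8.93, 11.6 and 11.5 CPM in CONV, with no separation of the pair. Of the other recombination genes, Brca1 and its partner Bard1 spanned 1.67 to 2.73 CPM and 1.64 to 2.49 CPM outside the pair. Palb2, the bridge between BRCA1 and BRCA2, spanned 2.46 to 3.91 CPM there, Rad52, an annealing factor, 10.4 to 13.2 CPM, and Xrcc3, which acts with Rad51c, 4.36 to 7.65 CPM.

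Fancd2, which is ubiquitinated at crosslinks, read 2.95, 2.34 and 2.39 CPM in sham, 2.54, 2.30, 10.4 and 3.46 CPM in FLASH, and 2.72, 16.1 and 1.91 CPM in CONV. Blm, the helicase that dissolves recombination intermediates, read 8.41, 7.84 and 8.94 CPM in sham, 7.33, 6.55, 17.3 and 8.00 CPM in FLASH, and 7.36, 25.7 and 4.04 CPM in CONV. Both were highest in the pair, and CONV replicate 3 had the lowest value of each. Without the pair the CONV to sham log2 fold change of Blm was −0.57 ± 0.26 (adjusted p = 0.402, edgeR), and it was −0.20 when CONV replicate 3 was also left out. Parp1, the poly(ADP-ribose) polymerase that signals single-strand breaks, read 51.9, 44.0 and 39.2 CPM in sham, 47.0, 44.8, 142 and 41.8 CPM in FLASH, and 40.9, 181 and 77.5 CPM in CONV. Here the pair was highest and CONV replicate 3 the next highest, and the CONV to sham log2 fold change of 0.37 ± 0.25 without the pair became −0.15 without that library. With CONV replicate 3 as the lone CONV library, Blm (−1.08, adjusted p = 0.0370) and Parp1 (0.76, adjusted p = 0.0426, edgeR) both passed against sham, as did 7.22% of all genes in that fit. Xrcc1, the scaffold that PARP1 recruits, read 16.9, 13.4 and 15.7 CPM in sham, 18.4, 15.1, 33.0 and 18.5 CPM in FLASH, and 13.9, 37.7 and 17.8 CPM in CONV, with overlapping groups outside the pair.

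Counted over the list, 24 of 31 genes had a positive fitted log2 fold change for FLASH against sham and 27 of 31 for CONV against sham with all 10 libraries, beside 54.1% and 56.9% of all genes tested. The medians were 0.29 and 0.35, against 0.03 and 0.08 over all genes. FLASH against CONV had 6 of 31 positive, beside 44.2% of all genes, and a median of −0.17. These medians followed the pair. Leaving out FLASH replicate 3 alone brought the FLASH median to −0.02 and the FLASH to CONV median to −0.42, and leaving out CONV replicate 2 alone brought the CONV median to 0.01 and the FLASH to CONV median to 0.34. Without both, 12, 15 and 14 of 31 genes were positive in the 3 comparisons, beside 48.5%, 51.3% and 46.9% of all genes, and the medians were −0.0236, −0.000766 and −0.0554. The comparisons with sham share the same 3 sham libraries.

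At an unadjusted p under 0.05 no gene of the list was reached with all 10 libraries, where 0.648%, 5.82% and 2.97% of all genes were. That count depended on single libraries. Without FLASH replicate 3 it was 8 for CONV against sham and 7 for FLASH against CONV. For CONV against sham it was 4 without CONV replicate 1 and 4 without CONV replicate 3. All of these fits kept CONV replicate 2, which was the lone Cr2-rich library once FLASH replicate 3 was left out. Leaving out CONV replicate 2 itself gave 0 for CONV against sham and 1 for FLASH against CONV. The share of all genes at this unadjusted p was not counted in these fits, so these numbers are not read as particular to the list. Without the pair the list had 0 for FLASH against sham (2.52% of all genes), 1 for CONV against sham (Brca2, 13.3% of all genes) and 2 for FLASH against CONV (Chek2 and Xrcc6, 13.7% of all genes). At the adjusted threshold 0%, 0.0393% and 0.0131% of all genes passed there. For FLASH against sham no gene of the list had all libraries higher (5.12% of all genes) and Xrcc6 and Lig4 had all lower (4.65%). For CONV against sham 1 was higher (12.9%) and 5 were lower, Brca2, Chek2, Blm, Mre11a and Nbn (13.2%). FLASH exceeded CONV in every library for Chek2 and Brca2 (12.8%) and was below it for Rad51c and Palb2 (13.3%). With all 10 libraries these counts were 0 and 1 for FLASH against sham (2.44% and 2.46%), 1 and 1 for CONV against sham (8.55% and 9.13%) and 0 and 0 for FLASH against CONV (1.13% and 1.13%). As shares of the 31 genes, these unadjusted p and non-overlap counts were close to or below the percentage of all genes, where given.

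**Figure D3:**
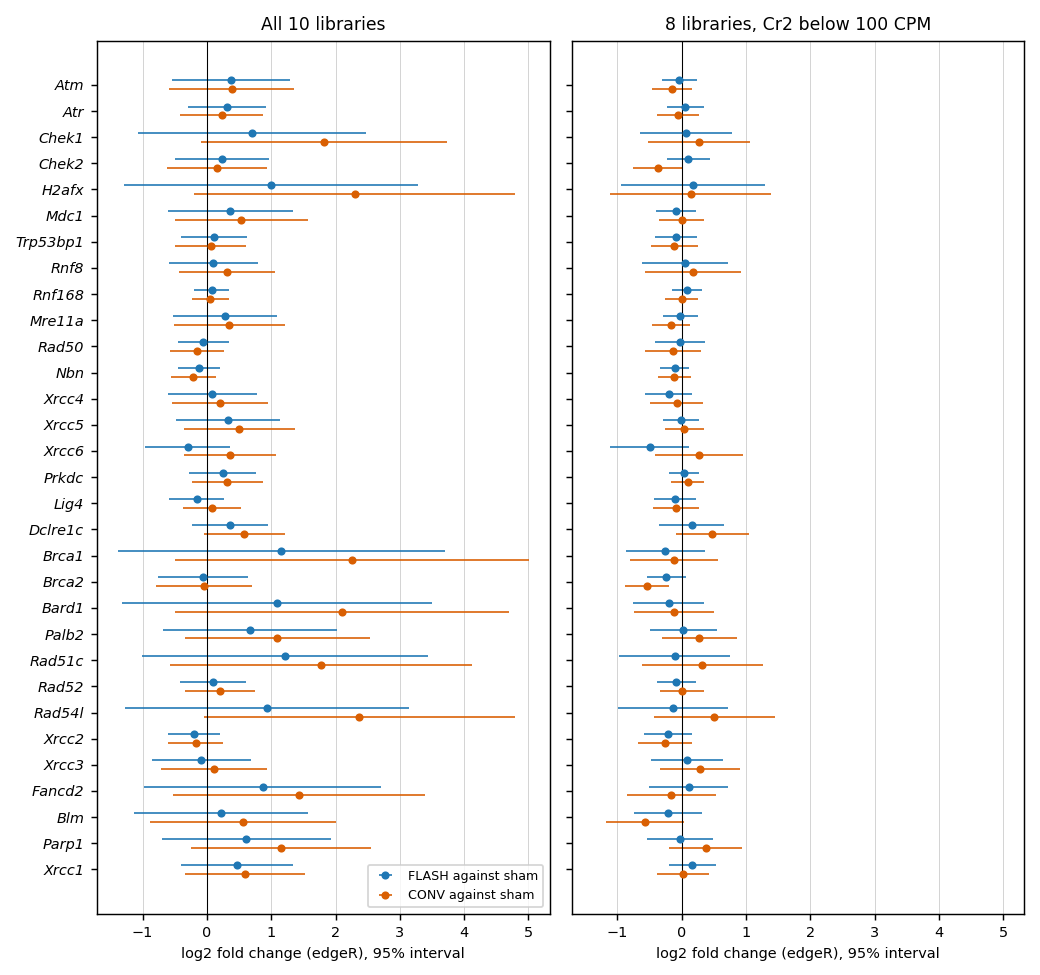
Log2 fold change against sham (edgeR, points) with its 95% interval (bars) for FLASH and CONV, with all 10 libraries on the left and the 8 libraries with Cr2 below 100 CPM on the right. The intervals are narrower on the right, and on that side Brca2 in CONV is the interval that lies below 0.

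The precision differed between the fits. With all 10 libraries 16, 13 and 19 of 31 genes had an interval within 2-fold either way for FLASH to sham, CONV to sham and FLASH to CONV. Without the pair these were 29, 25 and 26 of 31, and 18, 14 and 15 had an interval within 1.5-fold.

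The Cr2-rich pair is described here without a test, since a B cell gene defined it. All 31 genes averaged 0.96 log2 units above the sham mean in FLASH replicate 3 and 1.27 in CONV replicate 2, and −0.05 to 0.08 in the other libraries. The genes above all 8 others in both libraries, 22 of 31 (32.4% of all genes tested), were 4 of 4 kinases, 3 of 5 of the break mark group, 1 of 3 of the MRN complex, 3 of 6 end joining genes, 7 of 9 recombination genes and all 4 of the crosslink and single-strand groups. Nbn alone was below (31.1% of all genes). Scaling by total gene counts made this 25 above and 0 below, beside 42.1% and 21.9% of all genes. The relative log expression (RLE) and upper-quartile factors of edgeR both gave 22 above and 2 below. Brca1 was 7.00 and 13.6 times the median of the 8 in FLASH replicate 3 and CONV replicate 2, Bard1 6.11 and 11.3 times, H2afx 4.91 and 13.4 times, Rad54l 4.87 and 12.5 times, and Rad51c 6.86 and 8.13 times. Xrcc3 was at 0.517 and 0.683 times, Rad50 at 0.897 and 0.859 times, and Rnf168 at 1.00 and 1.06 times.

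**Figure D4:**
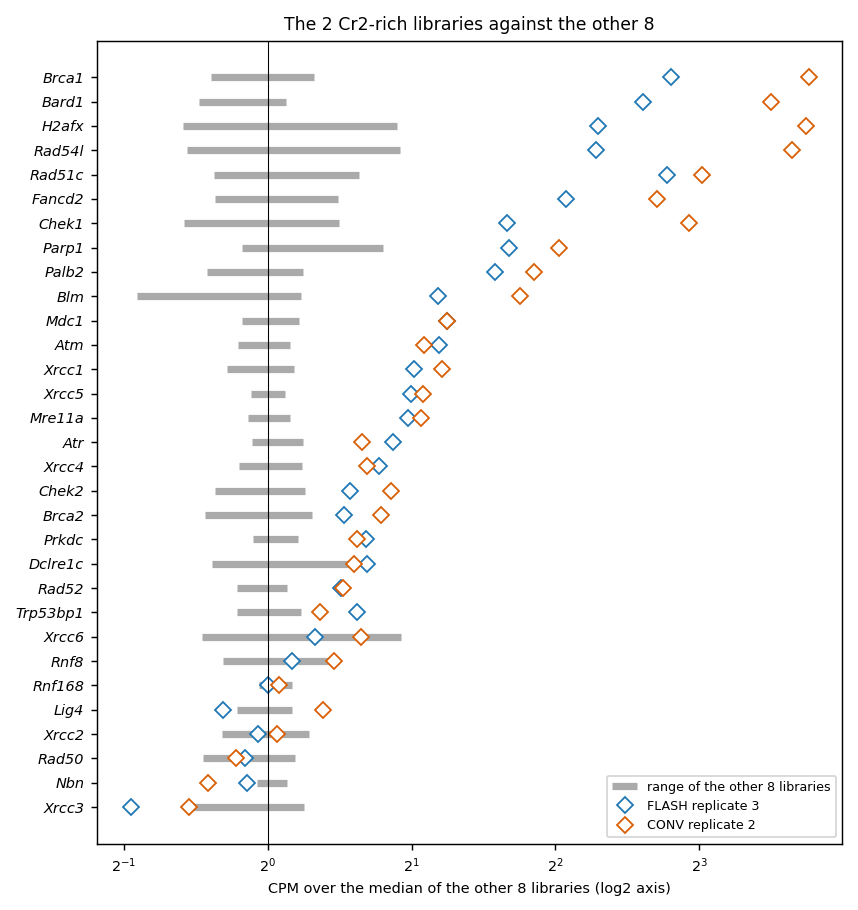
CPM of each break repair gene in FLASH replicate 3 and CONV replicate 2, divided by the median of the other 8 libraries (log2 axis), with the range of those 8 as a grey bar. Brca1, H2afx, Rad54l and Bard1 stand farthest to the right in CONV replicate 2, and Brca1 and Rad51c in FLASH replicate 3. Rnf168, Xrcc2 and Rad50 lie within the bar.

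Genes of dividing cells moved with the same libraries. The 22 proliferation genes, Mki67 and the replicative helicase genes among them, averaged 2.25 log2 units above the sham mean in FLASH replicate 3 and 3.44 in CONV replicate 2, and between −0.36 and 0.22 elsewhere. Mki67 itself, a marker of cycling cells, was at 139 and 417 CPM in the pair and at 10.0 to 27.2 CPM in the other 8. Recombination genes averaged 1.30 and 1.80 in the pair, kinases 1.08 and 1.38, end joining genes 0.50 and 0.65, and the MRN complex 0.18 and 0.10. B cell genes averaged 9.25 and 9.53, germinal centre B cell genes 3.42 and 3.57, T cell genes 6.78 and 6.15, and adipocyte genes −2.39 and −2.65 in the same libraries. The part of these cell types in the repair gene levels was not tested.

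**Figure D5:**
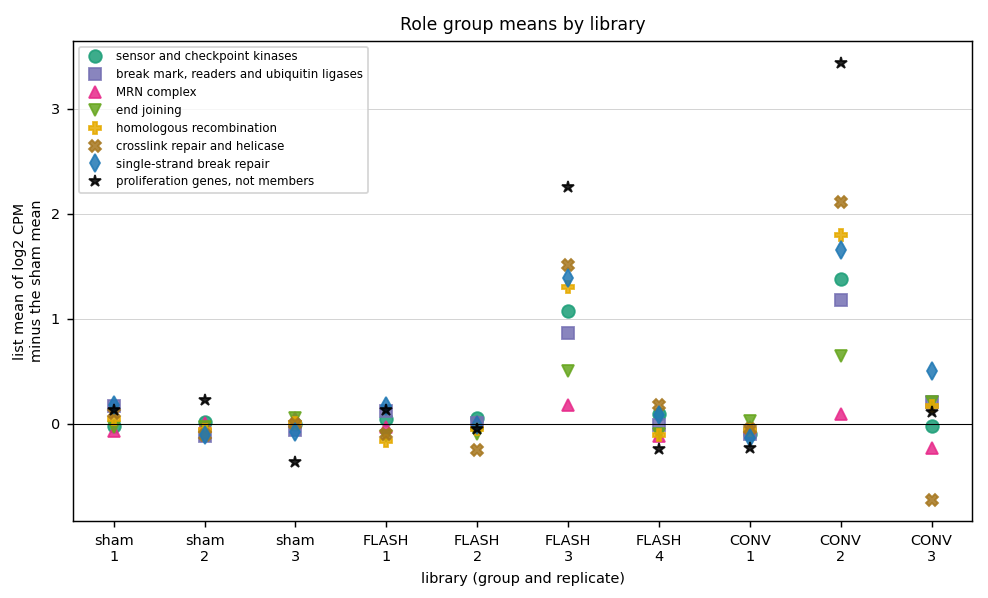
Mean log2 CPM of each role group minus its sham mean, in each library, with the 22 proliferation genes as black stars. FLASH replicate 3 and CONV replicate 2 stand apart, with the stars highest, crosslink genes next and the MRN complex lowest.

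For 10 genes the 140 bases before the RefSeq start (GRCm38.p6) hold no annotated exon. Among those 10, Brca1 and Rad54l had the highest mean ratio of both libraries of the pair and Xrcc3 the lowest, and their promoters are shown. Over the whole list Bard1 and H2afx had higher ratios than Rad54l. The genes shown were chosen after the values were known. The sequences run 5′ to 3′ on the gene's strand, and capitals mark CCAAT or its reverse complement.
Brca1, chr11:101551956-101552095, minus strand: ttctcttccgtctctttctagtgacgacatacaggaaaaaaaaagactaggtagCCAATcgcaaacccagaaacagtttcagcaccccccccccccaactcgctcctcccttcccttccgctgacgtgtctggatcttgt
Rad54l, chr4:116123691-116123830, minus strand: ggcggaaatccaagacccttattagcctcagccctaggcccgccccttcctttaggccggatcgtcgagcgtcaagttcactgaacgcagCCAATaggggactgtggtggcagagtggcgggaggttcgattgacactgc
Xrcc3, chr12:111813880-111814019, minus strand: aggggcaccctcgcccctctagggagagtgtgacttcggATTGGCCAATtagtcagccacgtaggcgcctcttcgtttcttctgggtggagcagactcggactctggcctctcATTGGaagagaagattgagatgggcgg

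CCAAT was present once each for Brca1 and Rad54l and at 3 places for Xrcc3, and it was absent from the Bard1 window at either length searched. Of the 31 genes, 25 had a promoter in the RefSeq table, and CCAAT was in 8 of those 25 over 140 bases, beside 23.4% of all 32851 promoters. The E2F words TTTCCCGC, TTTCGCGC, TTTGCCGC and TTTGGCGC were in 2 of 25, Mdc1 and Xrcc6, beside 1.16%, and the cell-cycle word TTTGAA was in 0 of 25, beside 8.38%. All words were searched on both strands. A gene of the list counted when any of its promoter entries held the word, while the percentages are shares of single entries. Genes with more entries, such as Rad54l with 2, thus had more chances. The window was first set at 250 bases and shortened, after its matches had been seen, to keep annotated exons out of the printed sequences. Over 250 bases CCAAT was in 12 of 25 (33.8% of all), an E2F word in 5 of 25, Chek2, Mdc1, Xrcc6, Brca2 and Bard1 (1.86%), and TTTGAA in 2 of 25, Rnf8 and Bard1 (16.0%). Such matches describe these letters in these windows only.

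Of 76 other genes of the pathway 73 were found, and none passed the adjusted threshold in any comparison among the 72 tested with all 10 libraries or the 71 tested without the pair. With all 10 libraries 61 of 72 were positive for FLASH against sham and 59 of 72 for CONV against sham (54.1% and 56.9% of all genes), with medians of 0.30 and 0.42. Without the pair these were 28 and 31 of 71 (48.5% and 51.3% of all genes), with medians of −0.04 and −0.03. Unadjusted p-values under 0.05 without the pair numbered 0 for FLASH against sham (2.52% of all genes), 4 higher and 2 lower for CONV against sham (13.3%), and 5 higher and 4 lower for FLASH against CONV (13.7%). Timeless, a replication fork protector, read 5.86, 7.74 and 8.27 CPM in sham, 6.15, 5.09, 22.3 and 7.63 CPM in FLASH, and 10.3, 28.2 and 17.7 CPM in CONV. All of its CONV values were above sham, and FLASH against CONV without the pair gave −1.14 ± 0.28 on the log2 scale with an adjusted p of 0.163 (edgeR). Pole, the leading-strand polymerase, read 12.1, 11.5 and 10.5 CPM in sham, 15.0, 13.2, 29.3 and 13.5 CPM in FLASH, and 9.89, 46.0 and 7.91 CPM in CONV. Its FLASH values lay above sham and its CONV values outside the pair lay below it, with a FLASH to CONV difference of 0.65 ± 0.16 and an adjusted p of 0.163. Polq, the polymerase of alternative end joining, was at 1.99 to 2.85 CPM outside the pair and at 16.8 and 26.7 CPM inside it.

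The 20 p53 target genes, which transcription by p53 raises after damage, averaged −0.14 to 0.26 log2 units around the sham mean in all 10 libraries. None passed the adjusted threshold. Single genes spread more widely with all 10 libraries, from −0.56 to 2.53 for FLASH and −0.75 to 2.66 for CONV against sham. All CONV values lay above sham for 3 of the 20 (8.55% of all genes) and below for 1 (9.13%). All FLASH values did so for 0 (2.44%) and 0 (2.46%). Cdkn1a, the p21 cell-cycle inhibitor, read 29.8, 29.5 and 20.1 CPM in sham, 57.5, 41.5, 15.6 and 18.0 CPM in FLASH, and 24.3, 11.4 and 15.1 CPM in CONV. FLASH replicates 1 and 2 were the highest and FLASH replicate 4 was below all sham values, so the groups overlapped, with a FLASH to sham log2 fold change of 0.55 ± 0.39 without the pair (adjusted p of 1.00, edgeR). Mdm2, the ubiquitin ligase of p53, had 0.02 ± 0.10 and 0.03 ± 0.12 for FLASH and CONV in the same fit.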

How the data were processed

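The authors deposited raw, unnormalized whole-number counts by gene symbol, 1 file a library. The submitters' processing notes name kallisto 0.5.0 and mm10, but each file closes with 5 entries for reads given to no gene, named as htseq-count names them. Aligner, strand setting and annotation were not given in the sources used here. Those entries (52.0% to 69.6% of all entries) were left out of library sizes and tests. Per the labels' protocols, RNA came from frozen tissue and the stranded kit removed ribosomal RNA.

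Genes were filtered by filterByExpr, scaled by TMM and fitted by edgeR 4.0.16 (R 4.3.3) with a robust quasi-likelihood model of 1 mean per group over all groups, testing 15266 genes with 10 libraries and 15252 with the 8 whose Cr2 was at most 100 CPM. All 31 genes passed the filter in both. Tests were two-sided, with Benjamini-Hochberg adjustment and a threshold of 0.05. List means use log2 CPM with a prior count of 2, computed from the deposited counts. Alternatives were other scalings, filters and fits, limma 3.58.1, DESeq2 1.42.0, a replicate block and leaving out each library. The steps were tested on simulated data. The genes and lists were chosen with earlier results of these data known. Values in every library are given for 10 genes in every case and for the 3 lowest p-values per direction of each comparison, and for other pathway genes by the same kind of rule. Polq, Mki67, Cdkn1a and Mdm2, and the promoters, were chosen after values were seen. Exon lengths and overlaps came from GENCODE M21 basic (GRCm38, mm10), used in place of the full set after retained introns were seen to lengthen Atr, and promoters from RefSeq (GRCm38.p6), with no entry for 6 genes.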

Additional observations from a re-analysis of the deposited data

Results flagged for a closer look

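In the FLASH group of 4, FLASH replicate 3 lay far above the other 3 libraries for 15 of the 31 break repair genes, with a gap to the nearest library that was a larger share of the group's range than Dixon's 95% limit for 4 samples. Its values were 206 CPM for Atm, 4.62 for Chek1, 99.0 for Mdc1, 31.2 for Mre11a, 9.86 for Xrcc4, 28.5 for Xrcc5 and 155 for Prkdc. They were 15.3 CPM for Brca1, 13.9 for Bard1, 9.86 for Palb2, 4.31 for Rad51c, 6.05 for Rad54l, 10.4 for Fancd2, 17.3 for Blm and 142 for Parp1. This library is 1 of the Cr2-rich pair. In both libraries of that pair 32.4% of all genes tested lay above every one of the other 8, and 31.1% lay below. The share of all genes past Dixon's limit was not counted, so the 15 are not read as particular to the list. In FLASH replicate 4, Rnf168 at 38.7 CPM was likewise apart from the other FLASH libraries. Chance marks about 1 in 20 groups by this limit, and genes of 1 library are not independent.

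Without the Cr2-rich pair, every FLASH library lay on one side of the sham mean and every CONV library on the other for 2 genes. Chek2 was above it in FLASH and below it in CONV, with a FLASH to CONV log2 difference of 0.48. Rad51c was below it in FLASH and above it in CONV, with a difference of −0.43. The pattern of opposite sides was not tested. The share of all genes with it was not counted, so the 2 genes are not read as particular to the list. The FLASH to CONV difference of neither gene passed in edgeR, with adjusted p of 0.262 and 0.704.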

How the results depend on the processing

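With all 10 libraries, no break repair gene passed in any of the 21 alternatives of the 3 comparisons. Without the Cr2-rich pair there were 19 alternatives each, and none called a gene for FLASH against sham. For CONV against sham DESeq2 called 1 gene (Brca2), and leaving out single libraries gave 0 to 2 genes, the 2 being Blm (−1.08, adjusted p 0.0370) and Parp1 (0.76, adjusted p 0.0426) without CONV replicate 1. Without that replicate FLASH against CONV also went from 0 to 2 genes, Xrcc6 (−1.22, adjusted p 0.0180) and Parp1 (−0.78, adjusted p 0.0394). CONV is then a single library, assumed to vary like the other groups. Over all genes, edgeR called 0, 6 and 2 for FLASH to sham, CONV to sham and FLASH to CONV, DESeq2 4, 663 and 667, and edgeR without CONV replicate 1 called 1134 for CONV against sham and 1025 for FLASH against CONV. With all 10 libraries DESeq2 called 66 genes for CONV against sham and 40 for FLASH against CONV, where edgeR called 0. Without the pair, the list's median for FLASH against sham ranged from −0.0803 to −0.0110 when single libraries were left out. That for CONV against sham was −0.0603 with total counts as scaling and −0.0543 with the replicate block, and −0.0860 to 0.0149 when single libraries were left out. That for FLASH against CONV was 0.00218 with the replicate block and −0.120 to 0.0263 when single libraries were left out. Same-numbered libraries' deviations from their group means correlated from −0.76 to 0.47. In groups this small the deviations depend on one another, so this cannot decide whether the numbers mark pairs. The main fits did not take them as pairs, and no gene of the list passed with the block. Signs of uncalled genes were kept for as few as 17, 20 and 10 of 31 genes over the alternatives with all libraries and 22, 18 and 19 without the pair. The causes were not tested. Depth limits genes under 3 CPM outside the pair, such as Rad51c, Chek1, Rad54l and Brca1.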
